A study of Mus musculus with 4 samples.

Results

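The pair of mRNA libraries compared here came from C57BL/6 mouse cells that the labels call tumor-initiating hepatocytes (TICs). The first library is labelled as control and titled for a control short hairpin, and the second is labelled H19 knockdown and titled for a hairpin against H19. Total RNA was taken from both, and both share the strain and the cell type. How many cultures, clones or animals stand behind each library, how old the animals were and how the hairpins were delivered is not stated in the labels. Each condition had 1 library, so no difference below has a replicate check, no p-value was computed and the spread between cultures cannot be separated from the hairpin. The control library held 33578868 counts and the other 34061172, over the same 16211 listed genes. All genes with at least 100 counts in 1 library were taken, which gave 11412 of the 16211, and 6495 of these had at least 1000 counts in 1 library and are called well counted. The tables list no gene with a summed count under 21, so a gene that is not listed was either below that limit or is otherwise absent from the tables used here. In what follows paired values are given with the control first.

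H19 is a maternally expressed imprinted RNA that is abundant in fetal liver, falls silent after birth and returns in a share of liver tumors. Short hairpin RNAs are processed to small interfering RNAs that direct cleavage of a matching transcript. Tumor-initiating cells of the liver are commonly sought by surface proteins such as Prom1 (CD133) and Itga6 (CD49f), and liver tumor cells often combine hepatocyte, bile duct and fetal gene expression. H19 had 43 counts in the control library against 40 in that labelled H19 knockdown, a ratio of 0.931 with a 95% counting interval of 0.589 to 1.46. The interval is an exact conditional binomial interval. Like all intervals below it covers counting error only, and PCR copies of a molecule are counted as separate reads. H19 ranked 12476 and 12516 of 14402 genes by level per length. The counts thus did not bear out the label, and every direction below refers to the library labelled H19 knockdown by its name only.

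In both libraries the RNAs of protein synthesis and structural noncoding RNAs were among the most abundant. Rn7sk, Rpph1, Rmrp, Malat1 and Neat1 (the last chosen after its value was known), which serve transcription, tRNA processing, mitochondrial and ribosomal RNA processing and nuclear bodies, together took 8.35% and 8.37% of all counts. Within that sum Malat1 was lower, at 1.86% and 1.31%, and Rpph1 higher, at 2.12% and 2.68%. Ribosomal protein genes took 7.11% and 6.82%. Levels between genes were compared as counts per kilobase of the longest annotated transcript per 1000000 scaled counts, available for 14402 genes. By this measure Eef1a1, the elongation factor that brings aminoacyl-tRNA to the ribosome, was first in both libraries at a level of 7209 and 7433. Rps12, a small-subunit protein, was second at 3773 and 3546, and Actb, cytoplasmic actin, was at ranks 4 and 3 with 2980 and 3414. Of the 20 highest genes 13 encoded ribosomal proteins, and of the 100 highest 53 did, against 30 when raw counts were ranked. None of the 20 highest genes passed 1.5-fold between libraries. Mitochondrially encoded mRNAs were uneven in counts, with mt-Co1 at 118919 and 124968 but mt-Co2, picked with its value known, at 18 and 25. Only uniquely mapped reads were kept, so a gene with copies elsewhere in the genome can lose reads. Its part in this gap was not tested.

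Genes of secreted, surface and antioxidant proteins were also among the most abundant. Cxcl1, Ccl2, Lcn2 and Msln were chosen after their values were seen, from the 40 highest genes outside the ribosomal, mitochondrial and histone lists. Spp1, the secreted phosphoprotein osteopontin, was at ranks 22 and 18 with a level of 1426 and 1436. S100a6, a calcium-binding protein, ranked 9 and 8. The neutrophil chemokine Cxcl1 ranked 36 and 42, the monocyte chemokine Ccl2 39 and 51, and the iron-sequestering lipocalin Lcn2 43 and 45. Saa3, an inducible acute phase protein, ranked 42 with a level of 1078 in the control and 83 with a level of 689.4 in the other library. Msln, the surface protein mesothelin, had 51711 and 46863 counts and ranked 74 and 87. Gclc, the catalytic subunit of the enzyme that starts glutathione synthesis, had 69949 and 81782 counts.

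The hepatocyte label was borne out by liver transcription factors and by few liver products. Of 44 hepatocyte markers 23 were listed and 14 reached 100 counts. Hnf4a, the nuclear receptor that maintains hepatocyte identity, had 2373 and 2764 counts. Foxa2, a pioneer factor of gut endoderm, had 1535 and 1337, and the bile acid receptor Nr1h4 had 4744 and 6718. Among products, Apob, the structural protein of very low density lipoprotein, was well counted at 37279 and 30259, as were the urea cycle enzyme Ass1 at 6326 and 5487 and the iron carrier Trf at 2171 and 1786. Alb, the most abundant product of adult hepatocytes, had only 129 and 88 counts and ranked 10476 and 11093. Ttr, the thyroxine carrier, had 78 and 51 and was picked with its value known. The 21 markers that were not listed include the urea cycle enzymes Cps1, Arg1 and Otc, the gluconeogenic enzymes G6pc and Pck1, the cytochromes Cyp2e1, Cyp3a11, Cyp1a2 and Cyp7a1, and the asialoglycoprotein receptor genes Asgr1 and Asgr2. The hepatocyte transcripts of metabolic zonation and plasma protein secretion were thus largely at trace or unlisted, and the cells are called TICs below, as labelled.

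Fetal and progenitor genes were present in part. Of 30 markers 21 were listed and 17 reached 100 counts. Prom1, the CD133 antigen, had 802 and 762 counts, and Itga6, the CD49f integrin chain, had 1144 and 1193, at ranks of 7538 for Prom1 and 6847 for Itga6 in the control. Both were chosen after their values were seen. The bile duct and progenitor keratin Krt19 was higher per length, at a level of 561.6 and 749.8 against 6.34 and 6.02 for Prom1. The adhesion proteins Cd24a and Cd44 were at levels of 281.5 and 304.6 and of 65.9 and 66.3. Of the oncofetal chromatin and RNA-binding proteins Hmga2 had 6079 and 7667 counts, and Lin28b, a blocker of let-7 maturation, 699 and 874. The fetal serum protein Afp had 75 and 44 counts and the epithelial antigen Epcam 12 and 11, both chosen after their values were seen. The pluripotency factors Nanog, Sox2 and Pou5f1 were not listed, nor were Dlk1, Gpc3, Sall4, Foxl1, Anpep and Kit. Of the 14 cholangiocyte markers 11 were listed and 6 reached 100 counts. Krt7, a duct keratin, had 6162 and 4194 counts, but Sox9 had only 122 and 109. Onecut1, Cftr, Muc1 and Ggt1, chosen after their values were seen, had at most 58 counts in either library. Aqp1, Tff2 and Sctr were not listed.

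Members of both the epithelial and the mesenchymal list were abundant, and members of both were at trace or not listed. The simple epithelial keratins Krt8 and Krt18 were at levels of 676.5 and 648.1 and of 676.5 and 591.2, and Cdh1, the epithelial cadherin, had 6174 and 5384 counts. Of the 21 epithelial markers 17 were listed and 13 reached 100 counts. Cldn4, Esrp1, Grhl2 and Ovol1 were not listed, and the junction genes Cldn3, Cldn7 and Tjp3, chosen after their values were seen, had at most 31 counts in either library. The intermediate filament Vim, typical of mesenchyme and of cultured cells, was at a level of 423.7 and 506.0, and Cdh2, the neural cadherin also found in hepatocytes, had 13454 and 14568 counts. Sparc, a secreted matrix-binding protein, had 11552 and 14746. Of the 26 mesenchymal markers 20 were listed, but Col1a2, Col3a1, Thy1, Fap, Pdgfra and Pdgfrb were not. The fibroblast genes Acta2 and Col1a1 had 21 and 10 and 59 and 42 counts.

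Markers of other cells were few. Of 12 lymphocyte markers 0 were listed, and the 3 listed of 12 endothelial markers summed to 146 and 122 counts. The 5 listed of 14 stellate cell and fibroblast markers summed to 127 and 105 counts, and the 2 listed of 7 erythroid markers to 50 and 54. Of 16 macrophage markers 5 were listed, with a sum of 3495 and 2641 counts, of which Cd14, a lipopolysaccharide co-receptor that epithelial cells can also express, made 3189 and 2417. The defining Kupffer cell genes Adgre1, Clec4f, Marco and Vsig4 and the complement genes C1qa, C1qb and C1qc were not listed. In bulk RNA, fewer cells of a type and less RNA per cell cannot be told apart.

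**Figure D1:**
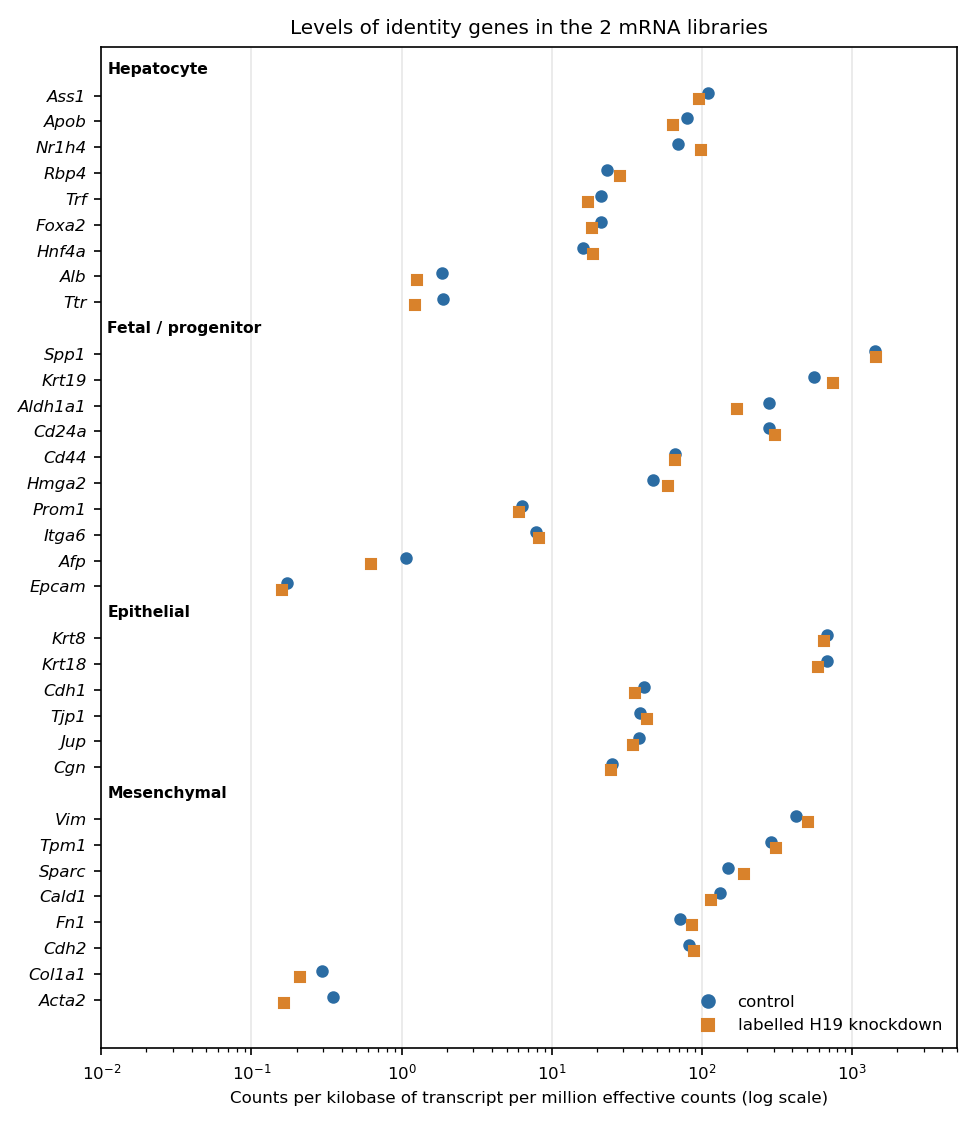
Levels of identity genes in the control library (circles) and the library labelled H19 knockdown (squares), as counts per kilobase of transcript per 1000000 scaled counts on a log axis, for genes of the hepatocyte, fetal and progenitor, epithelial and mesenchymal lists. Spp1, Krt19, Krt8, Krt18 and Vim lie above a level of 400 in both libraries, while Alb and Ttr lie below 2.

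The comparison of the libraries addressed which transcripts differ with the H19 hairpin. Most genes differed little. The ratio of counts scaled by TMM, edgeR's correction of library size, with 1 count added, lay within 1.1-fold for 60.3% of the 6495 well-counted genes and within 0.32 on the log2 scale for 93.2%, and the median log2 ratio was 0.02. At 1.5-fold, which is 0.585 on the log2 scale, the library labelled H19 knockdown had 18 well-counted genes higher, which is 0.277% of them, and 17 lower, which is 0.262%, or 0.539% in either direction. Among all 11412 genes 150 were higher (1.31%) and 159 lower (1.39%), 2.71% together. Past a log2 ratio of 0.32 either way, called the smaller limit below, 269 well-counted genes were higher (4.14%) and 171 lower (2.63%). Above a log2 ratio of 0 lay 54.9% of well-counted genes, and 45.1% lay below. The share past 1.5-fold depended on the count: it was 11.4% of the 1727 genes whose higher count lay between 100 and 300, and 0.288% of the 2081 genes between 3000 and 10000. In that last class the standard deviation of the log2 ratio was 0.163, against 0.0312 from counting error alone. The counting interval excluded equal levels for 62.3% of well-counted genes, so at this depth counting error is a small part of the spread.

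**Figure D2:**
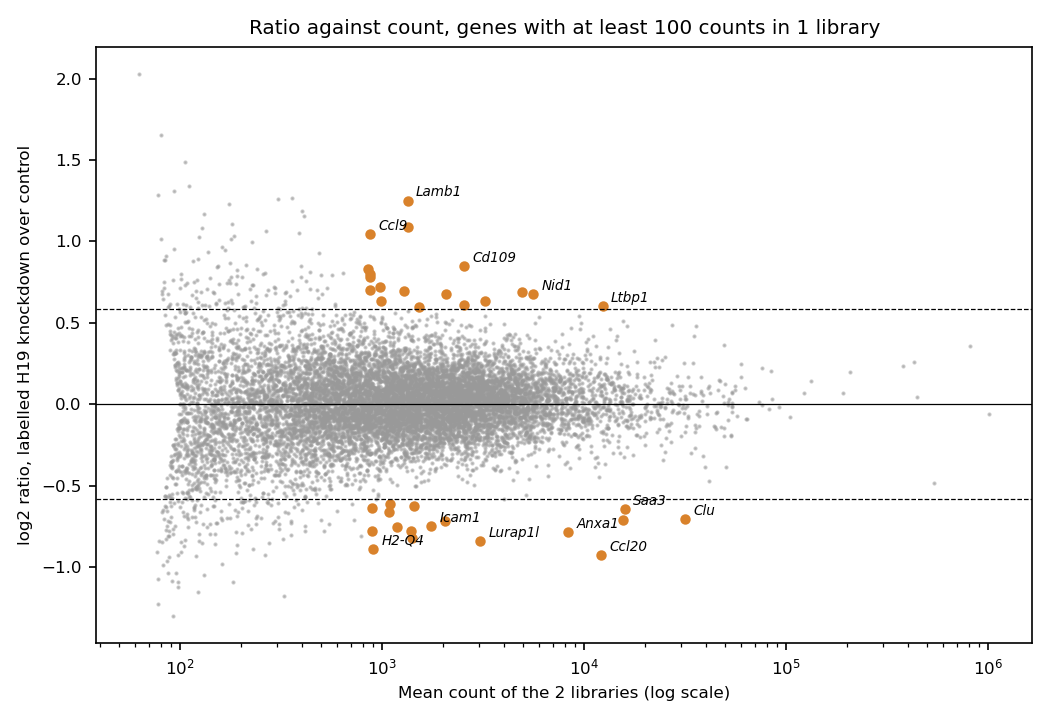
The log2 ratio, library labelled H19 knockdown over control, against the mean count on a log axis, for genes with at least 100 counts in 1 library (grey). Orange points are the 35 well-counted genes past 1.5-fold (dashed lines); the spread narrows as the count rises.

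Of the 18 well-counted genes that were higher, 4 belong to the basement membrane list. This sheet of laminin, type IV collagen, nidogen and perlecan underlies epithelia. Lamb1, the laminin beta-1 chain (chromosome 12, 31265146 to 31329644 in GRCm38), had 791 and 1885 counts, a ratio of 2.38 (2.19 to 2.59), the highest among well-counted genes. Nid1, nidogen-1, which links laminin to collagen IV, had 4308 and 6900 counts (ratio 1.60, interval 1.54 to 1.66). Col4a1 and Col4a2, the chains of the commonest collagen IV trimer, had 3779 and 6100 and 1595 and 2551 counts. Their ratios were 1.61 (1.55 to 1.68) and 1.6 (1.5 to 1.70). Outside that list, Ltbp1, which anchors latent TGF-beta in the matrix, had 9787 and 14900 counts and a ratio of 1.52 (1.48 to 1.56). No other well-counted gene past 1.5-fold in this direction had as many counts.

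Col4a1 and Col4a2 are transcribed away from each other from adjoining starts on chromosome 8, and the intervals of their ratios overlap. The window of the Col4a2 start is shown because it spans both starts: the RefSeq windows of the pair have RNA starts 21 bases apart and overlap by 78 bases. The counting is not stated to use strand, so reads at the shared start may belong to either gene. The sequence covers 250 bases before to 50 bases after the Col4a2 start on the plus strand, chr8:11312555-11312854 in GRCm38.p6, from RefSeq. Capitals mark a match to the consensus of NF-kappa-B. That consensus was present in 2 of the 15 higher genes with a window (13.3%). The share was 12.8% among well-counted genes with a window and 9.55% among all genes of the RefSeq table.
Col4a2: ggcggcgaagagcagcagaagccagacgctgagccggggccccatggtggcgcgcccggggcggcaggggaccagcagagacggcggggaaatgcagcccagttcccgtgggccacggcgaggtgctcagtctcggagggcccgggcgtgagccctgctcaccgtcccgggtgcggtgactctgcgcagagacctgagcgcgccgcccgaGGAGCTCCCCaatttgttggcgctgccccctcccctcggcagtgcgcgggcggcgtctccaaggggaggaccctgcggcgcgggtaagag

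Of the other well-counted genes that were higher, Ncapg2 and Bub1b belong to the mitosis list and the rest to no list. Ccl9, a monocyte chemokine, had 566 and 1170 counts (ratio 2.06, interval 1.87 to 2.29). Cd109, a membrane-anchored protein that binds TGF-beta receptors, had 1821 and 3285 counts (ratio 1.80, 1.70 to 1.91), and Jag2, a Notch ligand, had 631 and 1102 (ratio 1.74). Dlk2, a relative of the Notch modulator Dlk1, was at 1211 and 1836, and Itpkb, an inositol trisphosphate kinase, at 636 and 1095. The developmental transcription factor Sp8 had 614 and 1096 counts, a ratio of 1.78. Of the cell division genes Bub1b, of the spindle checkpoint, had 2019 and 3078 (ratio 1.52), Ncapg2, of condensin II, 982 and 1592 (1.62), and Vrk1, a chromatin kinase, 666 and 1084 (1.63). Nt5dc2 had 2520 and 3921 counts and Hspa2, an HSP70 family member, 768 and 1196. Rny3, a small Y RNA, had 858 and 1826 counts. Y RNAs have many copies in the genome, so its count is uncertain. Gm25395 also passed and is outside the rule for named genes.

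Of the 17 well-counted genes that were lower, 3 belong to the NF-kappa-B, chemokine and acute phase list (Ccl20, Icam1 and Saa3), 2 to the class I antigen presentation list (H2-Q4 and Psmb8) and 0 to the interferon-stimulated list. These lists hold 23, 13 and 19 well-counted genes. Ccl20, a chemokine that recruits dendritic and Th17 cells (chromosome 1, 83116766 to 83119167), had 15836 and 8349 counts and a ratio of 0.527 (0.513 to 0.541), the lowest among well-counted genes. Icam1, the leukocyte adhesion receptor, had 2187 and 1301 counts (ratio 0.594, interval 0.554 to 0.637). Saa3 had 19355 and 12387 (ratio 0.639, 0.625 to 0.654). H2-Q4, a class I histocompatibility gene, had 1168 and 631 (ratio 0.540), Psmb8, an immunoproteasome subunit, 1325 and 838 (ratio 0.632), Gbp9, an interferon-inducible GTPase in no list, 1755 and 1025 (ratio 0.584), and AW112010, an interferon-inducible transcript also in no list, 1789 and 1013 (ratio 0.566). H2-Q4, Gbp9 and Saa3 have close copies, so the division of reads among copies is uncertain.

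Of the remaining lower genes Aldh1a1 belongs to the fetal and progenitor list and the others to no list. Clu, the secreted chaperone clusterin, had 38954 and 23919 counts (ratio 0.613, 0.604 to 0.623), the largest count among genes past 1.5-fold. Aldh1a1, a retinal dehydrogenase used as a progenitor marker, had 19372 and 11857 (ratio 0.611, 0.598 to 0.626). Anxa1, the anti-inflammatory annexin, had 10538 and 6124 (ratio 0.581, 0.562 to 0.599). Upk1b, a tetraspanin of urothelium and mesothelium, had 1489 and 882, and Lurap1l had 3930 and 2200. Eda2r, a p53-inducible receptor of the TNF receptor family, had 1748 and 1133 counts, Cyp3a13, a xenobiotic cytochrome, 1084 and 697, Clca3a2 1120 and 652 and Tmem151a 1325 and 866. The pseudogene Olfr1372-ps1 also passed and is outside the rule. None of the 17 reached a 2-fold ratio. Just inside the limit lay Dlk2 at a ratio of 1.51 and Tmem151a at 0.653, and just outside lay Hkdc1 at 1.49 and Gbp2b at 0.668.

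**Figure D3:**
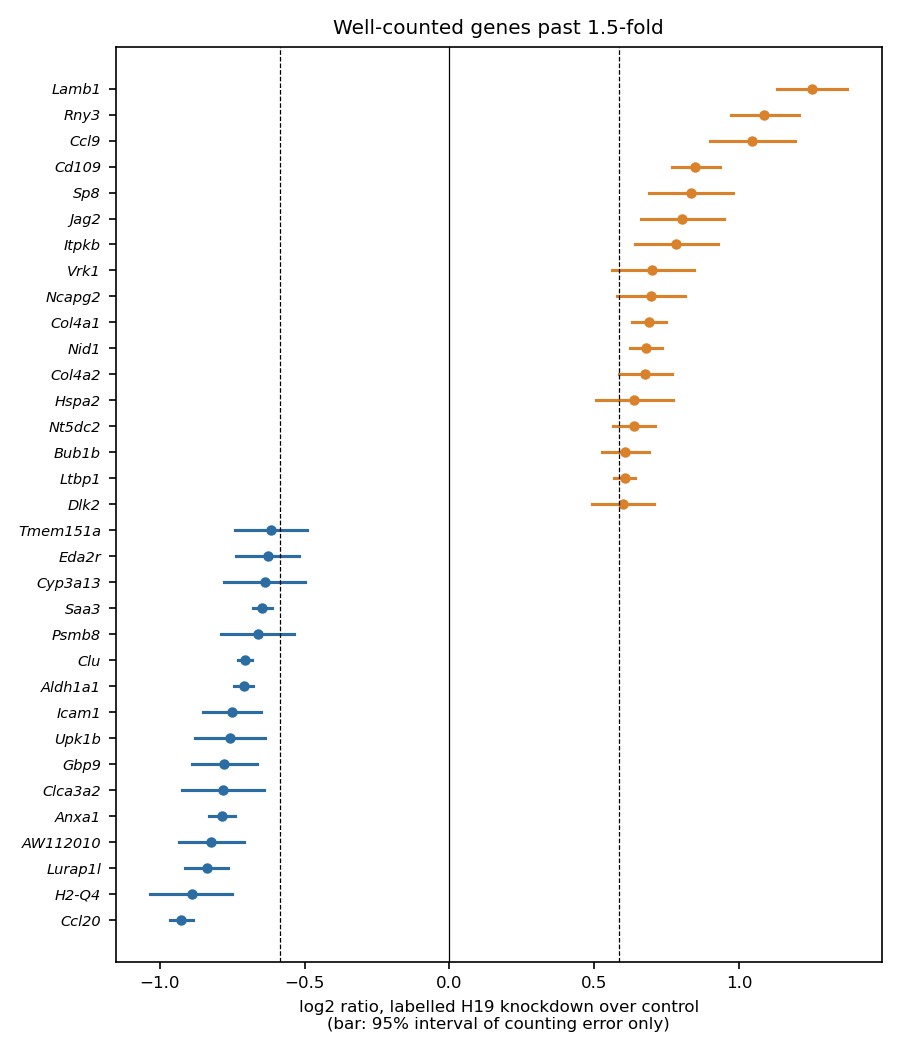
Log2 ratios, library labelled H19 knockdown over control, for the well-counted genes past 1.5-fold (dashed lines), without Gm25395 and Olfr1372-ps1. Points are ratios and bars are 95% intervals of counting error only; Lamb1 is highest and Ccl20 lowest.

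Promoter windows of the lower genes were searched for 3 motifs, the NF-kappa-B consensus, the interferon-stimulated response element core TTTCNNTTTC (each on both strands) and TATAAA on the gene's strand, and matches that overlap were counted once per gene. NF-kappa-B is the main inducer of chemokine genes, and the response element is bound by the interferon-activated factor ISGF3. Of the 17 lower genes 13 had a window in the RefSeq table. In 4 of the 13 the NF-kappa-B consensus was present (Ccl20, H2-Q4, AW112010 and Clca3a2). In 3 the response element was present (Clca3a2, Lurap1l and Saa3), and in 5 TATAAA. Motifs and lists did not coincide: Icam1 and Saa3, of the NF-kappa-B list, held no match to that consensus. H2-Q4, Psmb8 and AW112010 held no match to the response element. The shares among all 27025 genes of the table were 9.55%, 3.99% and 9.77%, and among well-counted genes with a window 12.8%, 3.41% and 5.60%. Of the 29 interferon-stimulated genes with a window 15 (51.7%) held the response element, and of 30 NF-kappa-B, chemokine and acute phase genes 14 (46.7%) held the NF-kappa-B consensus. A match is a description of these letters and not a site shown to be bound.

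The windows of Ccl20 and H2-Q4 are shown because they belong to the lowest ratios among well-counted genes and each holds the NF-kappa-B consensus, and those of Oas1a and Ifit1 because each holds 2 matches to the response element. They run 5′ to 3′ on the gene's strand, with motif matches in capitals, from RefSeq on GRCm38.p6. Positions are chr1:83116516-83116815 on the plus strand for Ccl20, chr17:35379367-35379666 on the plus strand for H2-Q4, chr5:120907476-120907775 on the minus strand for Oas1a and chr19:34640639-34640938 on the plus strand for Ifit1. In H2-Q4 the second stretch in capitals is TATAAA, and in Oas1a the matches overlap.
Ccl20: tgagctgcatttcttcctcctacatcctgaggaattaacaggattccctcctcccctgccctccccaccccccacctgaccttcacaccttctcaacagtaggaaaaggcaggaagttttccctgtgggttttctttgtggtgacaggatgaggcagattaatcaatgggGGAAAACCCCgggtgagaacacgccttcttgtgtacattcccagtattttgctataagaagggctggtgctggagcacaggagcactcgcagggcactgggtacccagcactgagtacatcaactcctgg
H2-Q4: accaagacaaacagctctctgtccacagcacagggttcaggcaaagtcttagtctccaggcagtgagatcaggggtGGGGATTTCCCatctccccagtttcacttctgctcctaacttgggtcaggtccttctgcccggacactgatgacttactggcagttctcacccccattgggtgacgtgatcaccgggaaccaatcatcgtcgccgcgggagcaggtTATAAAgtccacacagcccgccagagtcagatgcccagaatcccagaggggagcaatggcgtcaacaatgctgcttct
Oas1a: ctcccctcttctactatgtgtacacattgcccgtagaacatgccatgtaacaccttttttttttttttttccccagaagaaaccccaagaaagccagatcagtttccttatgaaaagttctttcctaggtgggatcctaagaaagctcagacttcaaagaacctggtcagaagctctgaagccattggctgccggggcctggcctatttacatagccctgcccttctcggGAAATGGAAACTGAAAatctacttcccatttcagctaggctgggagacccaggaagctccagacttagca
Ifit1: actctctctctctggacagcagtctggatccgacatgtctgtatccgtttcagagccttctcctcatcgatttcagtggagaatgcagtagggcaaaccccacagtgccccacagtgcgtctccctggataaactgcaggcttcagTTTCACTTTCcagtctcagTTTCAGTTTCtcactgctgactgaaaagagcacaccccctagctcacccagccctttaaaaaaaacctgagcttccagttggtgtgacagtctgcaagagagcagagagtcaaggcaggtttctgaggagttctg

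Gene lists were then read member by member, over those with at least 100 counts in 1 library. For comparison, 51.9% of all 11412 genes lay above a log2 ratio of 0 and 48.1% below, and the median was 0.01. Past the smaller limit 6.84% were higher and 6.67% lower. No test across a list was made, and many members of a list lie in the same pathway and can vary together.

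Mitosis genes were higher throughout. All 43 of 43 lay above 0, also when scaled to the total count, 15 passed the smaller limit and 2 passed 1.5-fold, with a median of 0.28. Beyond Ncapg2 and Bub1b, the spindle kinase Ttk had 562 and 826 counts (log2 ratio 0.55), Kif4, a chromosome-associated kinesin, 1168 and 1627 (0.48), and Top2a, which decatenates sister chromatids, 9408 and 12614 (0.42). Of 37 DNA replication genes 33 lay above 0, with a median of 0.20, 10 past the smaller limit and 0 past 1.5-fold. The polymerase subunit Pola1 had 1365 and 1965 counts (0.52), the licensing factor Cdc6 661 and 886 (0.42) and the ribonucleotide reductase subunit Rrm2 6193 and 8104 (0.39). Histone genes showed 60 of 62 above 0 with a median of 0.23, or 58 when scaled to the total count. The sterol and fatty acid synthesis list had 29 of 37 above 0, a median of 0.16 and 6 past the smaller limit. Fatty acid synthase Fasn had 4421 and 5944 counts (0.43) and acetyl-CoA carboxylase Acaca 2776 and 3585 (0.37).

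Matrix lists were split rather than shifted. Of 17 basement membrane genes 4 were past 1.5-fold higher and 0 lower, but 11 lay above 0 and 6 below, 10 and 7 when scaled to the total count, and the median was 0.08. Beside the 4 genes above, Col18a1, the precursor of endostatin, had 12807 and 18285 counts (0.51). Going the other way were 2 laminin chains chosen after their values were seen. Lama4 had 476 and 338 (-0.49) and Lama5 21530 and 19103 (-0.17), so chains of laminin did not share a direction. Of 26 genes of collagen processing and interstitial matrix 15 lay above 0 and 11 below, with a median of 0.04 and 1 past 1.5-fold. That gene was Crtap, of the collagen prolyl 3-hydroxylase complex, with 209 and 505 counts (1.27). Col5a1 had 929 and 1374 (0.56), while the collagen chaperone Serpinh1 had 558 and 381 (-0.55). Among 22 proteases and inhibitors the median was 0.05, and 1 gene, the metalloprotease Mmp19 with 131 and 220 counts (0.74), passed 1.5-fold. The 12 integrin chains had a median of 0.01 that turned below 0 on scaling to the total count, and Itgb4, the hemidesmosome chain, was lowest with 281 and 165 counts (-0.77).

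Class I antigen presentation genes were lower throughout. Of 21 genes 21 lay below 0 under both scalings, with a median of -0.27. Past the smaller limit 10 were lower and past 1.5-fold 4 were. These 4 were H2-Q4, Psmb8, H2-Q6 with 257 and 148 counts (-0.79) and H2-T10 with 133 and 83 (-0.68). H2-K1, a classical heavy chain of far higher level, had 38771 and 32191 counts (-0.27) and the light chain B2m 27847 and 24897 (-0.16), both chosen after their values were seen. Of 38 interferon-stimulated genes 35 lay below 0, with a median of -0.19, 16 past the smaller limit and 9 past 1.5-fold. Gbp4, an interferon-inducible GTPase, had 451 and 199 counts (-1.18), Ifi27 133 and 62 (-1.09), Oas1a, an oligoadenylate synthetase, 343 and 180 (-0.93), Oas1b 160 and 89 (-0.84) and Ifi47 683 and 410 (-0.74). The largest differences were in genes of few counts. The 19 well-counted members had a median of -0.08.

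Of 40 NF-kappa-B, chemokine and acute phase genes 27 lay below 0 and 13 above, or 29 and 11 when scaled to the total count, with a median of -0.14 and 7 past 1.5-fold lower against 0 higher. Apart from Ccl20, Icam1 and Saa3 these included Saa1 with 177 and 85 counts (-1.05), Saa2 with 136 and 76 (-0.83) and the growth factor Csf2 with 361 and 218 (-0.73). The chemokine Ccl9, which is outside this list, went the other way with 566 and 1170 counts (1.045). The inhibitor Nfkbia, itself a target, had 4566 and 5094 counts (0.16), and Cx3cl1 had 956 and 1321 (0.46), both chosen after their values were seen, so the list did not shift as a whole. In the same library the listed macrophage markers summed to 2641 counts against 3495, with Cd14 at 2417 against 3189 and Lyz2 at 53 against 132, but Cd68, a lysosomal protein of macrophages, at 140 against 118, while Adgre1, Clec4f and Marco were not listed in either. Their part in these differences was not tested. Of 36 unfolded protein and ATF4 genes 27 lay below 0, with a median of -0.09, 2 past the smaller limit and 0 past 1.5-fold. The glutathione-degrading enzyme Chac1 had 530 and 370 counts (-0.52) and the chaperone Hspa5 57044 and 43749 (-0.38).

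The remaining lists had medians on both sides of 0. The median was 0.04 for 26 glycolysis and hypoxia genes, with 0 past 1.5-fold, and Egln3, an oxygen-sensing hydroxylase, at 966 and 1331 counts (0.46) against Vegfa at 3315 and 2527 (-0.39). It was 0.16 for 30 receptor kinases and ERK feedback genes, of which the feedback inhibitor Spry2, with 335 and 505 counts (0.59), and the ERK-induced factor Etv4, with 225 and 362 (0.68), passed 1.5-fold. For 26 adhesion and junction genes it was 0.11, with Cldn1, a tight junction claudin, at 104 and 245 counts (1.23) and Pkp1 at 67 and 108 (0.68). For 81 ribosomal protein genes it was -0.05, with 57 below 0 and 0 past 1.5-fold. Of the identity lists the hepatocyte list had 9 of 14 below 0 and a median of -0.16, with Hpx, the heme carrier hemopexin, at 389 and 229 counts (-0.76) and Nr1h4 at 0.50. The mesenchymal list had 10 of 13 above 0 and a median of 0.24, with the homeobox factor Prrx1 at 114 and 247 (1.11) and S100a4 at 255 and 390 (0.61). The epithelial list had 10 of 13 below 0 and a median of -0.06, and the fetal and progenitor list a median of 0.04. Mitochondrially encoded mRNAs, whose share can vary with RNA handling, were higher: 7 of 7 lay above 0 with a median of 0.35, from mt-Co1 at 0.07 to mt-Nd2 at 0.54. Their part in the differences was not tested.

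**Figure D4:**
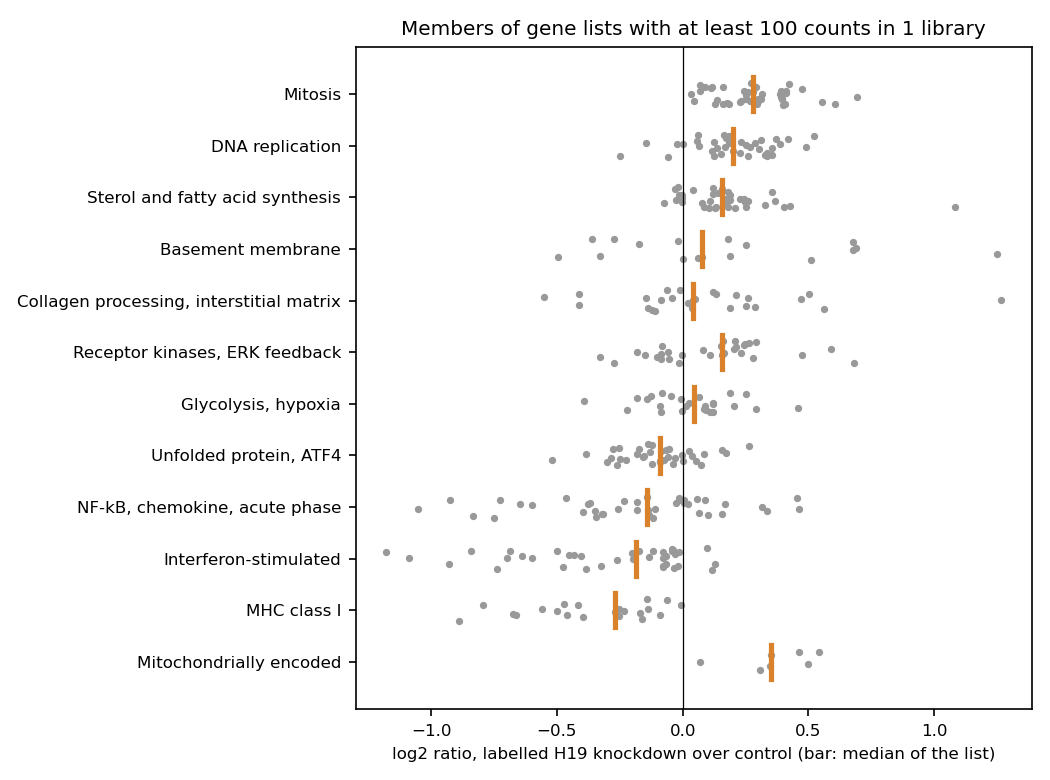
Log2 ratios, library labelled H19 knockdown over control, for members of 12 gene lists with at least 100 counts in 1 library (grey points, spread vertically for visibility), with each list's median as an orange bar. All mitosis points lie above 0 and all class I points below 0, while basement membrane points spread to both sides.

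Some of the differing genes lay together on a few chromosomes. Chromosome 12 held 182 of the well-counted genes, 2.80% of them, but 6 of the 18 that were higher at 1.5-fold. These were Lamb1, Sp8, Jag2, Vrk1, Ncapg2 and Hspa2. All 6 had under 1000 counts in the control, so they passed that minimum only through the library where they were higher. None of the 6 is among the 8 higher genes with at least 1000 counts in both libraries. Past the smaller limit chromosome 12 held 72 of 269 higher genes and 0 of 171 lower genes. Chromosome 4, with 4.82% of well-counted genes, held 43 of the 171 lower and 0 of the 269 higher genes, and 1 of the 17 lower at 1.5-fold. On chromosome 12 the well-counted genes had a median of 0.29, and 97.3% lay above 0. Those of chromosome 4 had a median of -0.17, with 10.9% above 0, and chromosomes 6 and 19 followed at -0.09 each. Chromosome 19, with 4.25% of well-counted genes, held 4 of the 17 lower genes, Aldh1a1, Anxa1, AW112010 and Tmem151a. The other chromosomes had medians from -0.01 to 0.07 over their well-counted genes.

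The shift ran along the whole of both chromosomes. In 10 successive groups of about equal numbers of genes, by position, the median on chromosome 12 lay between 0.19 and 0.33 and on chromosome 4 between -0.22 and -0.13. After each gene's chromosome median was subtracted, Lamb1 was at a log2 ratio of 0.97, Sp8 at 0.56, Jag2 at 0.53, Vrk1 and Ncapg2 at 0.42 each and Hspa2 at 0.36, so of these 6 only Lamb1 stayed past 1.5-fold, and 12 well-counted genes in all were higher and 19 lower. Ltbp1 and Dlk2, at 0.58 each, and Tmem151a, at -0.52, also lay under 1.5-fold. Nid1 was then at 0.63 and Col4a1 at 0.66, Ccl20 was at -0.95 and Clu at -0.71. The other lower genes of chromosome 19 stayed past 1.5-fold, Aldh1a1 at -0.62, Anxa1 at -0.69 and AW112010 at -0.73. Whether the chromosome shifts belong to the hairpin or to the cultures cannot be told apart with 1 library each.

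**Figure D5:**
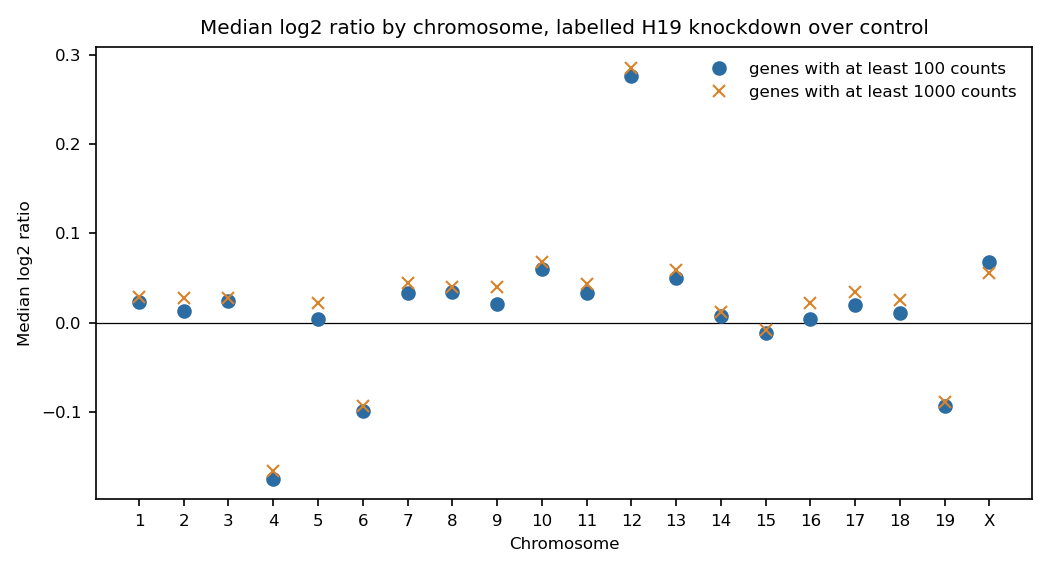
Median log2 ratio, library labelled H19 knockdown over control, for the genes of each chromosome, with at least 100 counts (circles) or at least 1000 counts (crosses) in 1 library. Chromosome 12 is highest, near 0.28, and chromosome 4 lowest, near -0.17.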

How the data were processed

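The authors deposited 1 table of raw read counts by gene symbol for each mRNA library. Per the submitters' processing notes and the design text of the series, STAR 2.5.2b aligned trimmed reads to GRCm38 and uniquely mapped reads were kept, with Trimmomatic 0.36 among the tools named. The counting program, annotation and strand use are not stated there. Small RNA libraries are not analysed here.

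Apostrophes inserted into 37 symbols were removed. Counts were scaled with edgeR 4.0.16 TMM in R 4.3.3, and the log2 ratio was computed with 1 count added, with an exact conditional binomial 95% interval (Python 3.11.15, scipy 1.17.1). Transcript lengths (88.8% of genes) are the longest in GENCODE vM1, a release on an older build used for lengths only. Chromosomes and positions (90.2% of genes) and promoter windows are from RefSeq tables on GRCm38.p6. With 1 library per group no model or test was run. Ratios and intervals were tested on simulated data with counting error only, so that test does not cover the spread between cultures.

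The members, the 1.5-fold limit and the gene lists were chosen with earlier results of these data known. Named are H19, the 20 highest genes by level and by count, well-counted genes past 1.5-fold (up to 25 per direction), and per list up to 5 members of largest ratio and at least 100 counts, with up to 6 of most counts and the unlisted members in identity lists. Predicted, clone-named and pseudogene symbols were left out. Some named genes are not reported here. Alternatives were total-count and DESeq2 1.42.0 scaling, 0.5 or 5 counts added, chromosome medians subtracted, other minimums and folds, list means and raw-count ranks.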

Additional observations from a re-analysis of the deposited data

How the results depend on the processing

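No paired analysis was possible because each group holds 1 library. Well-counted genes past 1.5-fold numbered 18 higher and 17 lower. These counts stayed within 1.5 times under total-count and DESeq2 scaling, 0.5 or 5 counts added and chromosome medians subtracted. DESeq2 gave both libraries a size factor of 1, close to TMM, so it could hardly change the counts. On subtracting chromosome medians the higher count fell to the edge of that range, with Sp8, Jag2, Vrk1, Ncapg2, Hspa2, Ltbp1 and Dlk2 under 1.5-fold. Higher and lower counts were 3 and 0 at 2-fold, 269 and 171 past a log2 ratio of 0.32, 38 and 28 with a minimum of 500 counts, 7 and 8 with 2000 and 8 and 11 with 1000 counts in both libraries. With the whole interval past 1.5-fold 11 were higher. Genes of at least 100 counts, 150 higher and 159 lower, numbered 23 and 12 at 2-fold, 39 and 32 with the whole interval past 1.5-fold and 746 and 1032 without a minimum. These settings admit other genes or a stricter limit. Of 199 list and chromosome medians 197 moved by less than their members' median counting interval. The basement membrane mean was 0.17 against a median of 0.08, and well-counted adhesion and junction genes had a median of 0.0379 against 0.11; the cause was not tested. Of the 100 highest genes 30 encoded ribosomal proteins by raw counts against 53 per length, as no length divides raw counts. Of 949 values of 191 named genes 871 stayed within their interval and 0 changed direction while past 1.5-fold. Of the 78 that moved, 12 moved up and 66 down, 51 of them on subtracting chromosome medians. Scaling to the total count shifted the median log2 ratio by -0.02. Genes near 100 counts have wide counting intervals, so their ratios are the least certain.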
